A study of Mus musculus with 4 samples.

Results

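The 70 histone genes described here were taken from 22408 genes measured in mouse embryonic stem (ES) cells. They are every gene whose current symbol or older Hist1h to Hist4h symbol places it among the clustered histone genes or the H1f linker histones. By class they comprised 10 H1, 18 H2A, 17 H2B, 12 H3 and 13 H4 genes. By position, 53 lay in the cluster on chromosome 13, 10 in the cluster on chromosome 3, 2 in a small cluster on chromosome 11 and 5 outside these clusters. The ES cells were of a C57BL/6X129Sv mix, had gone through less than 20 passages, and were grown in serum with leukemia inhibitory factor. By genotype they were either p53+/+ or p53-/-, the latter meant to lack the tumour suppressor p53. Each genotype was sequenced untreated and after 8 h in 0.5 uM Adriamycin (doxorubicin, a topoisomerase II poison that breaks DNA). That gives 4 groups of 1 library each, so no difference below has a replicate check, and anything else that differed between the cultures cannot be told apart from genotype or drug.

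Histones package DNA into nucleosomes. Most H2A, H2B, H3, H4 and H1 protein is made during S phase from the clustered genes, which are mostly without introns, occur in many near-identical copies, and are transcribed together under the coactivator NPAT. Their messages normally end in a conserved stem-loop, bound by SLBP, in place of a poly(A) tail, while replacement histones such as H1f0 are made throughout the cell cycle from polyadenylated messages. The labels describe the RNA sequenced as polyadenylated and name an exome enrichment kit as well. The values below therefore describe histone RNA that passed through that preparation, not the total histone message of the cell.

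The stem-loop is shown here because it sets these messages apart from the polyadenylated RNA that was sequenced. The pattern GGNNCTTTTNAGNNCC occurred in the reference transcript of 43 of the 70 genes and in 124 of 141767 transcripts in all (0.0875%, GENCODE M21). The letters were identical in 25 genes of the H1, H2A, H2B and H3 classes, of which H2bu2 is the example. The 11 H4 genes that held it used 3 forms found in no other class here, with 7 genes sharing the form of H4c17. Capitals mark the loop with the 2 stem bases on each side of it, and the lower-case letters at both ends pair with each other to complete the stem. No match says only that the letters are not in the reference transcript, which for some genes stops at the coding sequence.
H2bu2: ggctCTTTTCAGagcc
H2bc12: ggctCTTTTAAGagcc
H2ac20: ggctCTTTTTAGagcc
H4c17: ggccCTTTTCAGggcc
H4c11: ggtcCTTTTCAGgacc
H4c9: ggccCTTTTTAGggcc

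Levels are FPKM, fragments scaled to transcript length and library size, summed over a gene's transcripts. Aligned sequence (coverage times transcript length) amounted to 4.32 gigabases for p53+/+ untreated and 4.15 for p53+/+ with drug, and to 3.34 and 3.52 for the corresponding p53-/- libraries. Histone genes took 0.0258% and 0.0257% of those bases in p53+/+ cells against 0.0442% and 0.0338% in p53-/- cells. Of the 70 genes, 57 reached 1 FPKM in 1 library or more, as did 13014 of all genes, and the counts below concern those 57 only. Trp53, which encodes p53, stood at 216 and 165 FPKM in p53+/+ cells and at 78.6 and 76.5 FPKM in p53-/- cells, lower but not at 0. The 9 ES cell markers summed to between 2738 and 4394 FPKM in every library, with Pou5f1 at 658 FPKM or more. The 10 fibroblast markers summed to 8.57 and 14.6 FPKM in p53+/+ cells but to 367 and 314 FPKM in p53-/- cells. Their 9 genes past the filter were all higher in untreated p53-/- cells by at least 1 on the log2(FPKM + 1) scale, as were 3.51% of all genes. Col3a1, Postn, Dcn and Lum were listed at 0 in both p53+/+ libraries, whereas Col1a1 stood at 151 and 117 FPKM in the p53-/- libraries. The 6 primitive endoderm markers went the other way, from 22.1 and 19.4 FPKM in p53+/+ cells to 2.55 and 3.31 FPKM in p53-/- cells. The part of these other marker genes in the genotype differences below was not tested.

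Histone RNA was more abundant in p53-/- than in p53+/+ ES cells before any drug, in all 5 classes. The 70 genes together summed to 335 FPKM in untreated p53+/+ cells, 339 in treated p53+/+ cells, 733 in untreated p53-/- cells and 522 in treated p53-/- cells. The untreated p53-/- library was thus the highest and both p53+/+ libraries were nearly level. Since the libraries are bulk RNA, fewer cells of a type, such as cells in S phase, and less RNA per cell cannot be told apart. In untreated cells, 29 of the 57 genes were higher in p53-/- cells by at least 1 on the log2(FPKM + 1) scale, a step at which 3.51% of all genes were higher, and 1 was lower, beside 3.14% of all genes. The median histone difference was 1.01, against -0.05 over all genes past the filter. In the same comparison 53 of the 57 genes lay above 0 (93.0%, against 45.3% of all genes). Both p53-/- libraries stood above both p53+/+ libraries, without overlap, for 42 of the 57 histone genes, or 73.7%, and for 26.6% of all genes. The untreated p53-/- library was the highest of the 4 for 46 histone genes (14% of all genes), the treated p53-/- library for 7 (24.6% of all genes) and a p53+/+ library for 4 (61.3% of all genes).

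**Figure D1:**
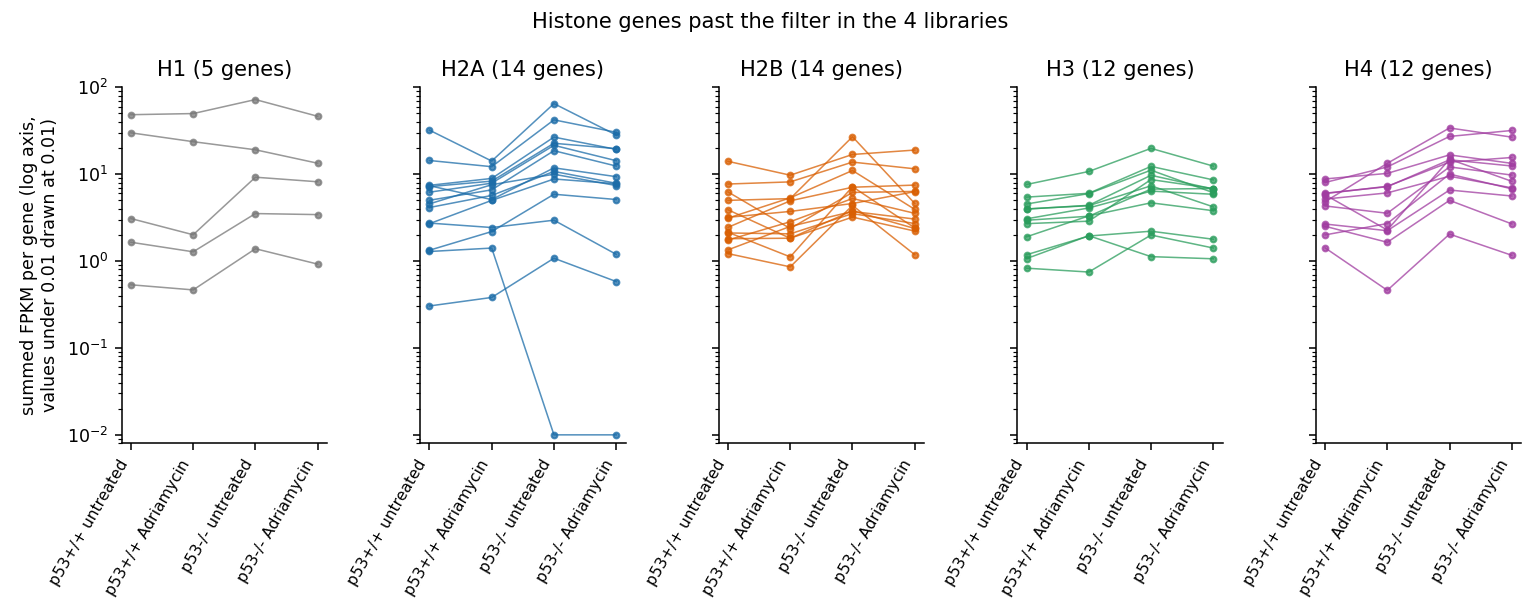
Summed FPKM (log axis, values under 0.01 drawn at 0.01) of the 57 histone genes past the filter, by class; each line is 1 gene across the 4 libraries. Most lines peak at the untreated p53-/- library, the highest of the 4 for 46 of these genes and for 14% of all genes, and the line that drops to the floor in the H2A panel is H2ac19.

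After Adriamycin the histone genes moved little in p53+/+ cells and were mostly lower in p53-/- cells. In p53+/+ cells, 1 of the 57 genes was higher by at least 1 on the log2(FPKM + 1) scale, where 11.4% of all genes were, and 3 were lower, where 2.78% were. The median histone difference was 0.12, against 0.05 for all genes. In p53-/- cells no histone gene was higher by that step, beside 0.377% of all genes, and 5 were lower, beside 0.461%. The median histone difference there was -0.34, against 0.07 for all genes, and only 7 of the 57 lay above 0 (12.3%, against 64.5% of all genes). In p53+/+ cells 64.9% of the histone genes and 53.9% of all genes lay above 0. In direction, 32 of the 57 genes were higher with drug in p53+/+ cells and lower with drug in p53-/- cells, as were 16% of all genes. Another 18 were lower in both, as were 19.3% of all genes, and 5 were higher in both, as were 37.8%. The last 2 were lower in p53+/+ cells and higher in p53-/- cells, as were 26.6% of all genes.

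With the drug, the genotypes were closer. In treated cells 12 of the 57 genes were higher in p53-/- cells by at least 1, as were 6.72% of all genes, and 1 was lower, as were 13% of all genes. The median was 0.48, against -0.02 over all genes. The p53+/+ response minus the p53-/- response was at least 1 for 7 histone genes, where 10.4% of all genes reached it, and at most -1 for 1, where 3.29% did. Its median was 0.48 for histone genes and -0.01 for all genes. These comparisons share libraries, so their values stand side by side and are not independent of each other.

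**Figure D2:**
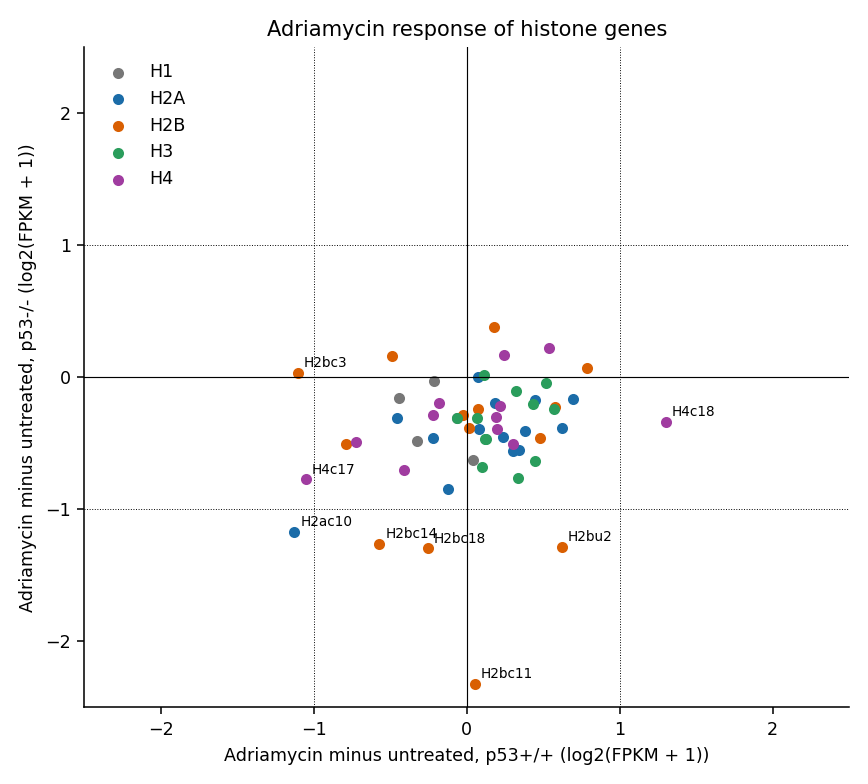
Response to Adriamycin (difference of log2(FPKM + 1), treated minus untreated) of each of the 57 histone genes in p53+/+ cells on the horizontal axis and in p53-/- cells on the vertical axis, coloured by class. Of the points, 32 lie to the right of 0 and below 0, and H2bc11 lies lowest at -2.32 in p53-/- cells.

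Other genes without introns, and other genes without long transcripts, did not show the genotype difference at this size. The 350 genes without introns that are not histone genes had a median untreated difference of -0.11, with 13 higher and 23 lower by at least 1. The 259 other genes with no transcript over 600 bases had a median of -0.01, with 18 higher and 15 lower. Only 8 other genes had both traits, with a median of -0.28, 0 higher and 1 lower. These groups were not chosen for near-identical copies or a missing poly(A) tail, and the part of gene structure in the histone difference was not tested. Among the histone genes themselves, the 26 past the filter whose model covers only the coding sequence had a median of 1.06, and the 31 with longer models had a median of 0.77. The 36 genes whose reference transcript holds the stem-loop had a median of 0.98, and the 21 without it had a median of 1.08.

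The class sums differed in size. H4 genes, which with H3 form the core of the nucleosome, summed to 57.5 FPKM without and 69.0 FPKM with drug in p53+/+ cells, and to 166 and 141 FPKM in the p53-/- libraries, 2.89-fold higher untreated. H2A genes, whose protein pairs with H2B at the outer faces of the nucleosome, summed to 96.7 and 87.8 FPKM in p53+/+ cells and 248 and 163 FPKM in p53-/- cells, 2.56-fold higher untreated. H3 genes summed to 39.2 and 49.7 FPKM in p53+/+ cells and 92.0 and 65.6 FPKM in p53-/- cells, 2.35-fold higher untreated. The order of classes therefore did not follow the partner proteins, since H4 led and H3 came below H2A. H2B genes summed to 56.0 and 52.5 FPKM in p53+/+ cells and 117 and 76.6 FPKM in p53-/- cells, 2.10-fold higher untreated. H1 genes, which encode the linker histones that bind DNA between nucleosomes, summed to 83.5 and 77.2 FPKM in p53+/+ cells and 105 and 72.2 FPKM in p53-/- cells, 1.26-fold higher untreated. Most of each H1 sum came from H1f0 and H1f10, which lie outside the clusters. These summed to 78.3 and 73.5 FPKM in p53+/+ cells and 91.3 and 59.7 FPKM in p53-/- cells, 1.17-fold higher untreated. The 3 clustered H1 genes past the filter were 2.14-fold (H1f1), 2.99-fold (H1f2) and 2.60-fold (H1f5) higher untreated. Their median difference on the log2(FPKM + 1) scale was 0.77. The place of H1 in this order therefore describes mainly the genes outside the clusters. With the drug, every class sum was lower in p53-/- cells, with ratios to untreated from 0.652 for H2B to 0.848 for H4. In p53+/+ cells the H3 and H4 sums were higher with drug, 1.27-fold and 1.20-fold, and the H1, H2A and H2B sums were lower, at 0.925, 0.908 and 0.938 of untreated.

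**Figure D3:**
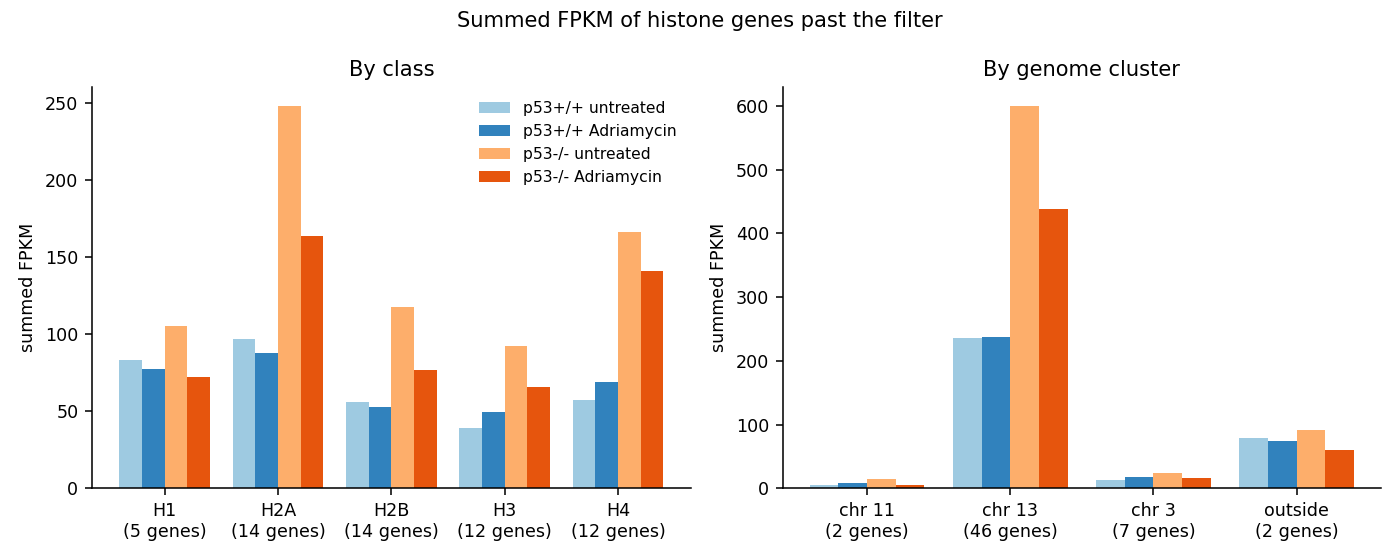
Summed FPKM of the histone genes past the filter in each of the 4 libraries (linear axis from 0), by class on the left and by genome cluster on the right. The untreated p53-/- bar is the tallest in every group, at 248 FPKM for H2A and 599 FPKM for the chromosome 13 cluster.

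The clusters also differed. The chromosome 13 genes, the major cluster, summed to 236 FPKM without and 237 FPKM with drug in p53+/+ cells, and to 599 and 438 FPKM in p53-/- cells. The p53-/- sum was 2.54-fold higher untreated and 1.84-fold higher treated. The chromosome 3 genes summed to 12.6 and 17.5 FPKM in p53+/+ cells and to 24.4 and 16.4 FPKM in p53-/- cells. The p53-/- sum on chromosome 3 was thus 1.93-fold higher untreated and 0.937 times the p53+/+ sum with drug, so the genotypes differed there before the drug and were nearly level after it. On chromosome 13, 27 of the 46 genes past the filter were higher in untreated p53-/- cells and none lower, with a median of 1.09. On chromosome 3, 1 of 7 was higher and another was lower, the median being 0.55. Of all genes, 3.51% were higher and 3.14% lower. With drug the medians were 0.66 on chromosome 13 and -0.03 on chromosome 3. Differences of low genes come out smaller on this scale, and no chromosome 3 gene exceeded 4.55 FPKM in untreated p53+/+ cells. There H3c13 and H2ac18, 2.46-fold and 2.19-fold higher in untreated p53-/- cells, came out at 0.97 and 0.98 and were not counted. The 2 chromosome 11 genes summed to 5.86, 7.77, 14.0 and 5.13 FPKM in the same order of libraries, and the 2 genes past the filter outside the clusters, H1f0 and H1f10, to 78.3, 73.5, 91.3 and 59.7 FPKM. The difference between clusters was not tested, and the 7 chromosome 3 genes include near-identical copies described below.

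Within chromosome 13 the genes lie in 2 stretches parted by more than 1 megabase. In the proximal stretch all 21 genes past the filter were above 0 in untreated p53-/- cells and 16 were higher by at least 1, with a median of 1.23. In the distal stretch 23 of 25 were above 0 and 11 were higher, with a median of 0.97. Of all genes, 45.3% were above 0 and 3.51% were higher by at least 1. The proximal genes ranged from 0.58 for H4bc24, an H2B gene formerly called Hist1h2br, to 2.59 for H4c18. The distal genes ranged from -0.03 for H2bc7 to 1.71 for H2ac7.

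**Figure D4:**
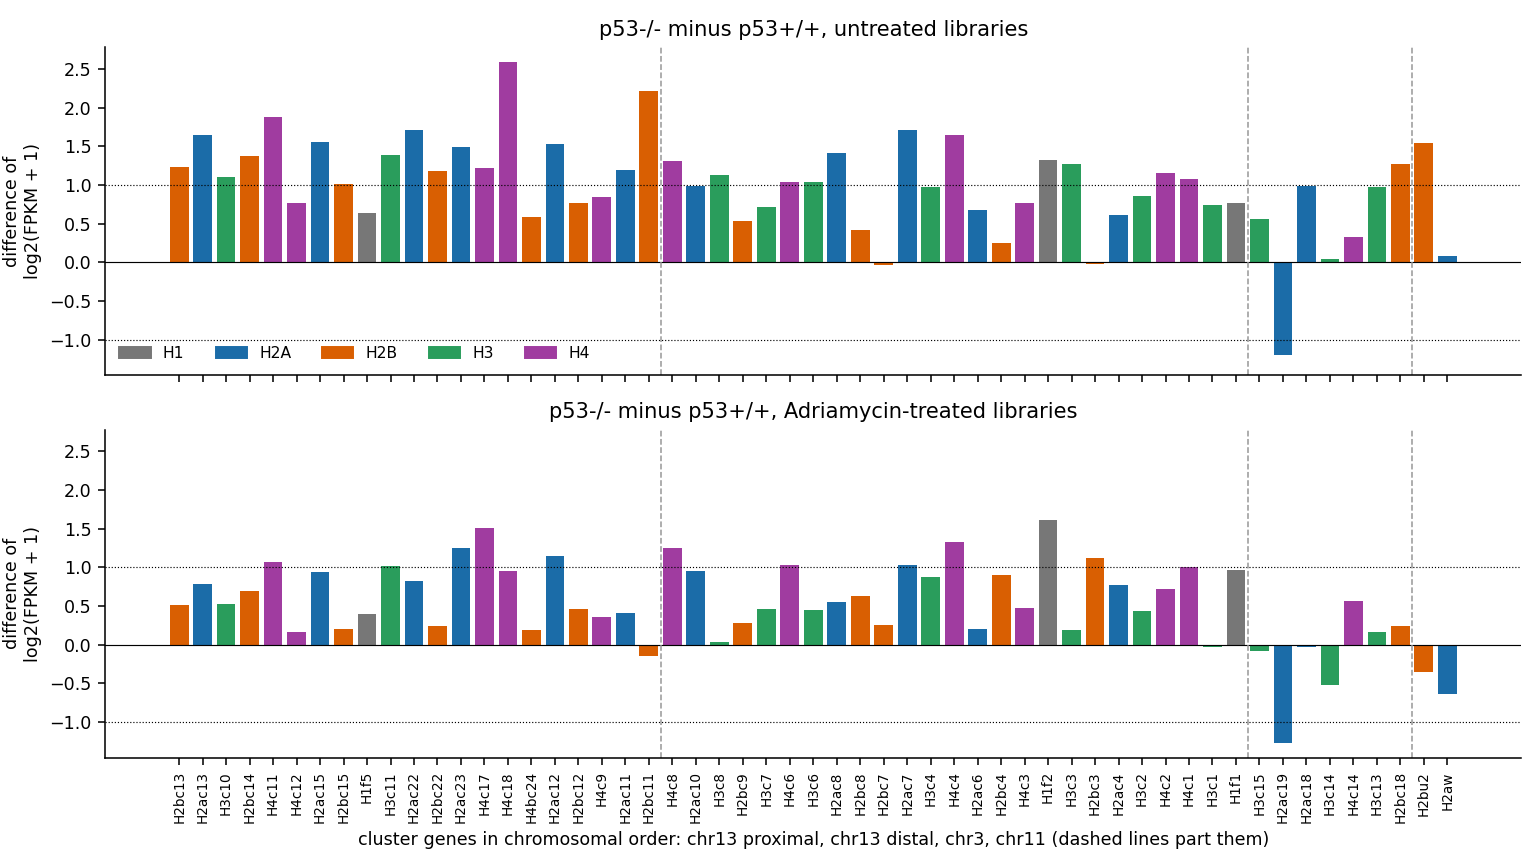
Difference of log2(FPKM + 1), p53-/- minus p53+/+, for each clustered histone gene past the filter in chromosomal order, for untreated libraries above and Adriamycin-treated libraries below; dotted lines mark differences of 1 and -1. All 21 bars of the proximal chromosome 13 stretch are above 0 in the upper panel, as were 45.3% of all genes. The lowest bar of both panels is H2ac19 on chromosome 3.

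Among the H4 genes, all 12 past the filter had a genotype difference above 0, both untreated, where 45.3% of all genes did, and treated, where 49.0% did. H4c4 was read at 8.02 FPKM without and 12.1 FPKM with drug in p53+/+ cells, and at 27.2 and 31.8 FPKM in p53-/- cells. It was the most abundant H4 gene by mean level and 1 of the 7 histone genes not lower with drug in p53-/- cells, at 0.22. Of the 50-base stretches in its 1138-base reference transcript, 89.8% were found nowhere else among the transcripts, but its deposited model covers 312 bases. Its FPKM exceeds its own upper bound in every library. Its neighbour in abundance, H4c18, stood at 4.82 and 13.3 FPKM in p53+/+ cells and at 34.0 and 26.7 FPKM in p53-/- cells. H4c17 stood at 5.79 and 2.28 FPKM in p53+/+ cells and at 14.9 and 8.28 FPKM in p53-/- cells. These genes share loci and only 14.4% and 10.2% of their 50-base stretches are unique, so the split of reads between them is uncertain, as are the opposite p53+/+ responses of 1.30 for H4c18 and -1.05 for H4c17. H4c11 stood at 2.00, 2.70, 10.02 and 6.78 FPKM in untreated and treated p53+/+ and untreated and treated p53-/- cells, 5.01-fold higher untreated in p53-/- cells. H4c8 stood at 4.31, 3.55, 12.1 and 9.76 FPKM in that order of libraries, which is kept below. H4c6 stood at 2.67, 2.24, 6.57 and 5.61 FPKM. Each of these showed both p53-/- libraries above both p53+/+ libraries. H4c9, H4c2 and H4c1 did so too at 8.81 to 16.7, 6.04 to 14.6 and 5.98 to 15.6 FPKM from the lowest to the highest library.

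The 250 bases before the start of H4c4 (RefSeq, GRCm38.p6, chr13:23581318-23581567, plus strand) are shown as those of the most abundant H4 gene. Capitals mark its CCAAT (here as ATTGG, its complement on this strand) and its TATAAA, which were found in 3 and 6 of the 11 promoters of clustered H4 genes.
H4c4: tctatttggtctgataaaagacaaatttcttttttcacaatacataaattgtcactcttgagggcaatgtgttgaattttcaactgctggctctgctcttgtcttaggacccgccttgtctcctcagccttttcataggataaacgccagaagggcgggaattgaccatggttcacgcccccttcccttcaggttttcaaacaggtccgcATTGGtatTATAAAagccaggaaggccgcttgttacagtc

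Among the H2A genes, 8 of 14 past the filter were higher in untreated p53-/- cells, beside 3.51% of all genes, with a median of 1.30. With drug in p53-/- cells none was above its untreated level, where 64.5% of all genes were. H2ac10 was the most abundant clustered gene, at 32.1, 14.2, 64.9 and 28.2 FPKM. It differed from the rest in being lower with drug by at least 1 in both genotypes, at -1.13 and -1.17. Its p53-/- level was 2.02-fold the p53+/+ level untreated and 1.99-fold treated. H2ac23 stood at 14.4, 12.2, 42.2 and 30.3 FPKM. The nearly identical H2ac24 at the same locus was listed at or near 0 in all 4 libraries, so the value of H2ac23 stands for both. H2ac7 stood at 7.44, 8.93, 26.7 and 19.3 FPKM, the largest untreated H2A difference at 1.71. H2ac12 stood at 7.19, 8.32, 22.7 and 19.7 FPKM, and H2ac13 at 6.202, 7.88, 21.5 and 14.3 FPKM. H2ac22 stood at 5.01, 6.60, 18.6 and 12.4 FPKM. Those 4 share a direction. With drug they stood at 1.16 to 1.32 times the untreated level in p53+/+ cells and at 0.666 to 0.867 times in p53-/- cells. Untreated, they were 3.15 to 3.72-fold higher in p53-/- cells. At most 32.9% of the 50-base stretches of each are unique, so they are not independent readings. H2ac8, H2ac11 and H2ac15 were smaller: without drug they stood at 2.69, 4.13 and 1.33 FPKM in p53+/+ cells and at 8.80, 10.8 and 5.87 FPKM in p53-/- cells. On chromosome 3, H2ac18 stood at 4.55, 7.56, 9.98 and 7.40 FPKM and H2ac19 at 1.29, 1.41, 0.00042 and 4.2e-05 FPKM. They are copies at the same loci, and H2ac19 has none of its 50-base stretches unique, so the only histone gene counted as lower in p53-/- cells cannot be read apart from its copy. With the copies summed, no histone gene was lower by at least 1 in either genotype comparison.

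The H2B genes ranged from -0.03 to 2.22 in the untreated genotype comparison, with a median of 0.89. H2bc11, an intronless coding model at chr13:22135099-22135479 in mm9, stood at 4.99 FPKM without and 5.23 FPKM with drug in p53+/+ cells, 27.0 FPKM in untreated p53-/- cells and 4.60 FPKM in treated p53-/- cells. Only the untreated p53-/- library stood apart, and the other 3 lay between 4.60 and 5.23 FPKM. The untreated p53-/- level was 5.40-fold the p53+/+ level, and with drug it was 0.171 of its untreated level, the largest response of any histone gene (-2.32). The deposited bounds of that library, 11.8 to 18.96 FPKM, lay above those of the other 3, 1.49 to 5.27 FPKM, although the FPKM itself exceeds its own upper bound in 3 of the 4 libraries. Its head-to-head partner H2ac11, 280 bases away, did not share the pattern, at 4.13, 5.69, 10.8 and 7.85 FPKM. H2bu2, on chromosome 11, stood at 3.12, 5.34, 11.02 and 3.94 FPKM and H2bc14 at 2.14, 1.12, 7.17 and 2.41 FPKM. H2bc18, on chromosome 3, stood at 1.22, 0.858, 4.37 and 1.19 FPKM. With H2bc11 and H2ac10 these are the 5 genes lower with drug in p53-/- cells, and 4 of the 5 encode H2B.

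The other H2B genes described here varied in the genotype comparison, with H2bc3 and H2bc7 at about 0 untreated. H2bc3 stood at 6.24, 2.37, 6.16 and 6.33 FPKM, so the treated p53+/+ library alone was low, and it was the 1 gene whose p53+/+ response minus p53-/- response was at most -1 (-1.14). H2bc4, the most abundant H2B gene, stood at 14.0, 9.73, 16.8 and 18.9 FPKM, 1.20-fold higher untreated and 1.95-fold higher treated in p53-/- cells. H2bc7 stood at 3.89, 1.83, 3.80 and 2.37 FPKM, with no untreated difference to speak of (-0.03). H2bc12 stood at 7.70, 8.15, 13.8 and 11.5 FPKM. H2bc13 had the largest increase with drug in p53+/+ cells of the H2B genes, 0.78, and stood at 2.44, 4.93, 7.07 and 7.49 FPKM. H2bc22 was higher in untreated p53-/- cells at 1.75, 2.83, 5.25 and 3.54 FPKM.

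The promoters of H2bc11 and H2bc3 are set side by side because the difference between the p53+/+ and p53-/- responses was highest for H2bc11 (2.38) and lowest for H2bc3 (-1.14) of all histone genes (RefSeq, GRCm38.p6, 250 bases before the start, chr13:22042948-22043197 and chr13:23746484-23746733, both plus strand). Capitals mark CCAAT on either strand, TATAAA on the gene's strand, and the octamer ATTTGCAT on either strand, a site read by POU factors such as OCT1 in H2B promoters. H2bc11 holds 5 CCAAT and neither of the other motifs, and H2bc3 holds 3 CCAAT, 1 octamer and 1 TATAAA. The octamer is also in the promoters of H2bc18 and H2bc8, whose responses differed by 1.04 and -0.21. Whether the motifs go with the responses was not tested.
H2bc11: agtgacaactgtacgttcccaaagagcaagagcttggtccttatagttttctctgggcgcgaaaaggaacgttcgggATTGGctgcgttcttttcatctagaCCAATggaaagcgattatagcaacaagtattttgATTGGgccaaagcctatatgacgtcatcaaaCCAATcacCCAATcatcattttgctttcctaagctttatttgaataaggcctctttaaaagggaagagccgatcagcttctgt
H2bc3: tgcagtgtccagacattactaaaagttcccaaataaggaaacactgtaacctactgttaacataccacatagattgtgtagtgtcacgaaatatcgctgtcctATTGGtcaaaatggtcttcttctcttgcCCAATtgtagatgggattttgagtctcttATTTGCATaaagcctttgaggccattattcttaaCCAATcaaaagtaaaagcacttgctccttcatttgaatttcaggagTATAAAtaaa

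Over all clustered genes with a promoter in the RefSeq table, the octamer was present in 14 of 61 promoters (22.95%) and in 1.60% of 32851 promoters of the whole table. It was found in 7 of 18 H2A and 7 of 16 H2B promoters and in no H1, H3 or H4 promoter. CCAAT was present in 51 of the 61 (83.6%, against 33.8% of all promoters), with all H1, H2A and H2B promoters but 3 of 11 H4 promoters. TATAAA was present in 24 of the 61 (39.3%, against 7.59%). Of the 5 promoters of genes outside the clusters, 1 held CCAAT and none held the octamer or TATAAA. A match describes letters in the window and not a site in use.

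Head-to-head H2A and H2B genes share 1 promoter stretch. H2ac6 and H2bc4, 239 bases apart with untreated differences of 0.67 and 0.25, were not counted because H2bc4 had no promoter entry to give its strand. With both strands known, 7 such pairs on chromosome 13 had both genes past the filter, with 179 to 334 bases between their models. In 6 of the 7 pairs the H2A gene had the larger untreated genotype difference. In the widest contrast, H2ac7 differed by 1.71 and H2bc7 by -0.03, and for H2ac8 and H2bc8 the values were 1.41 and 0.42. The exception was H2ac11 with H2bc11, at 1.19 and 2.22. As deposited, genes sharing a stretch of promoter did not have equal values in the genotype comparison. Of the 50-base stretches, 32.9% were unique in H2ac7, 34.2% in H2bc7, 21.1% in H2ac11 and 40.6% in H2bc11. The share was lower in H2ac12 (9.27%), H2ac13 (9.88%), H2bc15 (13.6%), H2ac22 (14.2%) and H2bc13 (17.2%), and highest in H2ac8 (56.8%). The count of 6 of 7 thus includes genes whose reads are hard to assign, and the part of shared sequence in these values was not tested.

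The H3 genes differed by at most 1.39 between the untreated genotypes. All 12 passed the filter and all 12 lay above 0 in untreated p53-/- cells, as did 45.3% of all genes, with a median of 0.97. Of the 12, 5 were higher by at least 1, beside 3.51% of all genes. In 11 of the 12 the treated p53+/+ level was above the untreated one, as for 53.9% of all genes. In 11 of the 12 the treated p53-/- level was not above the untreated one, where 64.5% of all genes were above. H3c3 stood at 7.60, 10.7, 19.8 and 12.4 FPKM and H3c8 at 4.53, 5.98, 11.1 and 6.12 FPKM. For these the difference of responses was 1.08 and 1.10. H3c6 stood at 5.44, 6.02, 12.3 and 8.59 FPKM. H3c10 stood at 3.96, 4.38, 9.70 and 6.75 FPKM, and H3c11 at 2.70, 2.88, 8.66 and 6.83 FPKM. H3c14 on chromosome 3 stood at 1.07, 1.96, 1.12 and 1.06 FPKM, the smallest untreated difference of the class at 0.04, and none of its 50-base stretches is unique.

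The 3 clustered H1 genes past the filter were above 0 in the genotype comparison, untreated and treated, where 45.3% and 49.0% of all genes were. H1f2, whose sequence is 91.5% unique, stood at 3.08, 2.01, 9.23 and 8.18 FPKM. Each of these lies within its own deposited bounds, 2.28 to 3.59 and 1.43 to 2.55 FPKM in p53+/+ cells and 7.33 to 10.2 and 6.39 to 8.85 FPKM in p53-/- cells, so the bounds of the genotypes did not overlap. Those bounds come from 1 library each and do not cover variation between cultures. The treated difference of 1.61 was the largest of any histone gene. H1f1 stood at 1.65, 1.28, 3.52 and 3.42 FPKM and H1f5 at 0.533, 0.466, 1.39 and 0.922 FPKM. Neither reached a difference of 1. Outside the clusters, H1f0, the replacement linker histone that builds up in cells leaving the cycle, stood at 29.9, 23.7, 19.1 and 13.4 FPKM. It was lower in p53-/- cells, with differences of -0.62 untreated and -0.78 treated, opposite in sign to most clustered genes but not all. With drug it was lower in both genotypes. H1f10, another linker histone encoded alone and without a cluster, had the highest level of all 70 genes, 48.3, 49.8, 72.2 and 46.4 FPKM, with only the untreated p53-/- library high and an untreated difference of 0.57.

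The promoter of H1f0 is shown for contrast with the clustered genes (RefSeq, GRCm38.p6, chr15:79027962-79028211, plus strand). It holds none of the 3 motifs, so no letters are in capitals.
H1f0: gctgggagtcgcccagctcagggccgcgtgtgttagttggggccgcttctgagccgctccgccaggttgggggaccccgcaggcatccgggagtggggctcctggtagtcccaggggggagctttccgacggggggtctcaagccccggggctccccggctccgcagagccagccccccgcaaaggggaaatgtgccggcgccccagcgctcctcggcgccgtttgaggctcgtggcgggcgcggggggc

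The 13 genes under 1 FPKM in every library were not counted above. They include H2bc1 and H2ac1, the testis H2B and H2A genes, at most 0.703 and 0.466 FPKM, and the germ cell linker histones H1f6, H1f7 and H1f8, at most 0.101, 0.0995 and 0.244 FPKM. The linker histone genes H1f3 and H1f4 were at most 0.726 and 0.439 FPKM. The others were H2ac24, H2bc6, H2ac20, H2ac21, H2bc21 and H4f16, with a highest value of 0.854 FPKM for H2ac20 in untreated p53-/- cells.

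Genes of histone message production stood on both sides of 0 between the untreated genotypes, from -0.70 for Zfp473 to 0.69 for Upf1. Npat and Slbp were at -0.42 and -0.45, and Lsm11 was at 0.46. The 19 genes of histone message transcription and processing had a median untreated genotype difference of 0.04 and no gene past 1 in either direction. Their treated difference was 0.44, with Ccne1, cyclin E1, which with CDK2 activates NPAT, at 145, 49.3, 106 and 133 FPKM and the single gene of the list past 1 there (1.42). Ccne1 was also lower with drug in p53+/+ cells, at -1.54, and its responses differed by -1.87, as did those of Cdk2 by -1.18, from 35.0, 21.7, 24.2 and 35.0 FPKM. Slbp, which binds the stem-loop, stood at 54.3, 40.4, 39.4 and 46.2 FPKM. The Sm proteins Snrpb and Snrpd3, the most abundant of the list, stayed within 210 to 261 and 227 to 253 FPKM.

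The 25 S phase genes had a median of -0.11 in the untreated genotype comparison and 0.32 in the treated one, with none past 1 in any of the 5 comparisons. Mcm2, of the replicative helicase, stood at 182, 166, 183 and 185 FPKM, Mcm5 at 198, 159, 299 and 308 FPKM and Pcna, the sliding clamp, at 158, 98.4, 138 and 144 FPKM. Between untreated genotypes the S phase genes ranged from -0.95 for Pola1 to 0.59 for Mcm5, where the histone median was 1.01. The part of the cell cycle in the histone difference was not tested. The 17 chaperone genes had medians of -0.13 untreated and 0.26 treated. Among them Npm1 stood at 395, 270, 427 and 341 FPKM, Nasp, which holds the H3 and H4 reserve, at 224, 126, 156 and 167 FPKM, and Nap1l1, a carrier of H2A and H2B, at 22.3, 22.1, 24.002 and 11.1 FPKM, the 1 chaperone lower with drug in p53-/- cells (-1.05).

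Histone variants encoded outside the clusters had medians of -0.14 untreated and -0.23 treated over 9 genes. H2ax, the variant phosphorylated at DNA breaks, stood at 357, 312, 248 and 146 FPKM, lower in treated p53-/- than in treated p53+/+ cells (-1.09). H2az1 stood at 160, 68.4, 104 and 124 FPKM and was lower with drug in p53+/+ cells (-1.21). H2aj, an H2A variant, stood at 19.6, 48.4, 31.3 and 26.3 FPKM, higher with drug in p53+/+ cells (1.26). The H3.3 genes H3f3a and H3f3b stood between 98.1 and 187 FPKM in all libraries. Per length, H2ax, H2az1, H3f3a and H3f3b each exceeded in every library the highest value of any clustered gene, the 64.9 FPKM of H2ac10. Since clustered messages normally lack a poly(A) tail and the RNA is described as polyadenylated, this does not compare total message. The 8 genes of the poly(A) machinery had medians of -0.11 untreated and -0.07 treated, and in this list only Nudt21, a cleavage factor subunit, was past 1, at 22.7, 27.2, 48.8 and 28.2 FPKM, 1.07 higher in untreated p53-/- cells. Like H2bc11 and H1f10 it was high in the untreated p53-/- library alone.

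**Figure D5:**
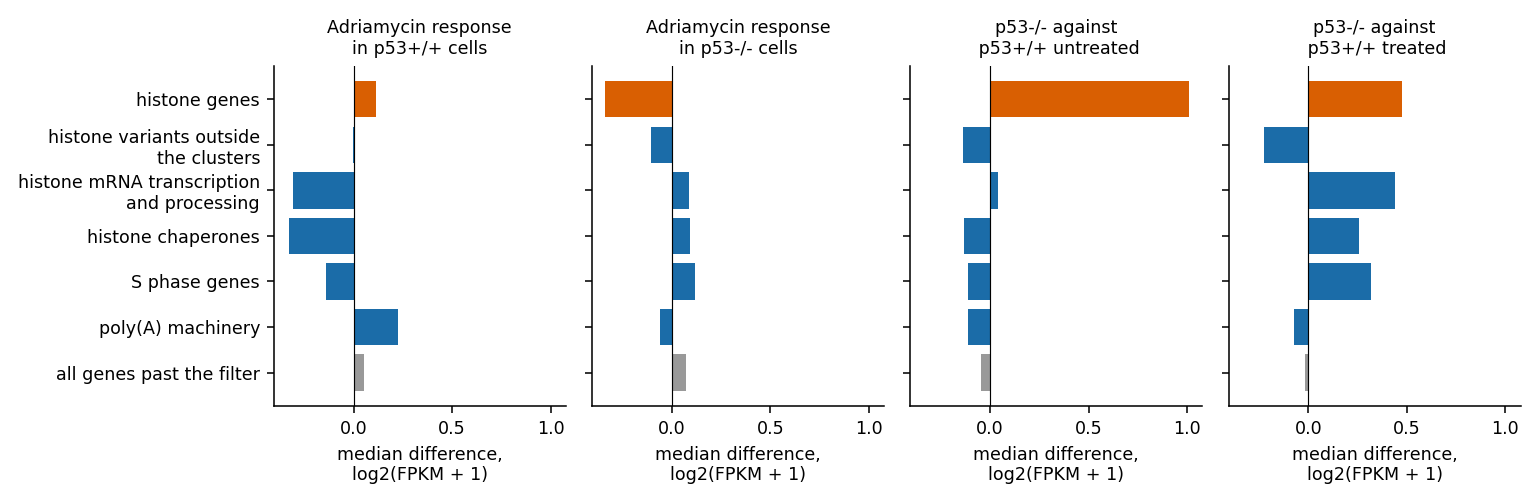
Median difference of log2(FPKM + 1) in each of the 4 direct comparisons for the 57 histone genes (orange), 5 lists of other genes (blue) and all genes past the filter (grey). In the untreated genotype comparison the histone bar stands at 1.01 and the other lists lie between -0.14 and 0.04.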

How the data were processed

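One library per group was sequenced, and the authors deposited FPKM, with a table for each library, in the layout of Cufflinks transcripts, per the file headers, with bounds of each FPKM, a quantification status and positions. The deposited tables also give read coverage, a signal of depth per base of each transcript. CASAVA 1.8.1, TopHat2 2.0.5, TopHat, Cufflinks and the mouse build mm9 are named per the submitters' processing notes. The Cufflinks version and the annotation are not given in the sources used here. Counts are not used here, and the depth behind a value is known only as coverage and length.

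Of the 30769 rows, 30227 were named from a RefSeq gene table of GRCm38.p6, 180 from GENCODE M21 and 362 not at all. FPKM was summed per gene (77 rows for the histone genes), leaving out short RNA genes. Genes reaching 1 FPKM in 1 library or more were compared on the log2(FPKM + 1) scale, where differences of low genes come out smaller than they are. Higher and lower mean a difference of 1 or more on it. With 1 library per group there is no test, no standard deviation and no p-value. The histone genes and the lists of other genes were chosen with earlier results of these data known.

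Histone models are short and alike, which bears on FPKM. Of the 70 genes, 65 have no intron and 31 models hold only the coding sequence. A median of 53.6% of a gene's 50-base stretches is unique among GENCODE transcripts. Of the 70 genes, 32 have an FPKM within its own bounds in every library, but only 20 of the 57 past the filter do. FPKM per unit of coverage was 1.12 to 1.19 times as high in rows of up to 400 bases as in rows over 1000 bases across the 4 libraries. Aligned bases were taken as coverage times length. Motifs and the stem-loop were searched in RefSeq promoters (250 bases before the start, 65 genes matched) and GENCODE transcripts (all 70 matched).

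Named with values were up to 5 genes per class by mean FPKM, genes past a difference of 1 that reached 5 FPKM in a library compared, genes under 0.1 FPKM throughout, and in the other lists genes past 1 and up to 4 of the most abundant. H2bc7, H2bc8, H2bc18, H2ac6, H2ac18, H2ac19, H3c14, H4bc24 and the genes under 1 FPKM were named after their values were seen. So were Npat, Lsm11, Zfp473, Upf1, Slbp, Pcna and Pola1. Alternatives were pseudocounts of 0.1 and 5 FPKM, a filter of 5 FPKM or none, rescaling by the upper quartile or by the median of ratios, the main transcript in place of the sum, only genes within their own bounds, and calls at 1.5-fold. Added after seeing the data were aligned bases in place of FPKM, only genes with at least 50% of 50-base stretches unique, and sums over copies that share loci. The comparison step was tested on simulated data with known changes. Python 3.11.15, pandas 2.3.3, numpy 2.4.6 and matplotlib 3.10.9 were used.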

Additional observations from a re-analysis of the deposited data

Results flagged for a closer look

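For 7 histone genes the response to Adriamycin had opposite signs in the 2 genotypes and the responses differed by at least 1 on the log2(FPKM + 1) scale. This held for 6 of the 57 genes (10.5%) with the p53+/+ response the higher, against 4.11% of all genes, and for 1 (1.75%) with it the lower, against 2.34% of all genes. Without the condition on signs, 10.4% and 3.29% of all genes differed by as much, so the size of the difference alone does not set the histone genes apart. With 1 library per group the difference was not tested for any of them. The p53+/+ response minus the p53-/- response was 2.375 for H2bc11, 1.906 for H2bu2, 1.639 for H4c18, 1.1 for H3c8, 1.084 for H3c3 and 1.013 for H2ac18. For H2bc3 it was -1.138, since the treated p53+/+ library alone was low. H2bc18, at 1.04, is not among them because it was lower with drug in both genotypes. H4c18 and H2ac18 share loci with H4c17 and H2ac19, so their own values are uncertain. The median of the same difference over the 57 histone genes past the filter was 0.477, with medians of opposite sign in the 2 genotypes, and the difference was not tested there either.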

How the results depend on the processing

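Of 459 recomputed values, 409 stayed close to the reported ones, 50 moved and no called value changed sign; the excess of histone genes higher in untreated p53-/- cells stood above the all-gene share under every alternative. No paired analysis was possible because each group has 1 library. Counts are given below as higher and lower, in the order p53+/+ response, p53-/- response, untreated genotypes, treated genotypes and difference of responses. At a pseudocount of 0.1, the p53+/+ response had 5 lower and the difference of responses 13 higher. At a pseudocount of 5 the counts were 0 and 0 in the p53+/+ response, 2 lower in the p53-/- response, 9 and 0 untreated, 2 and 0 treated, and 3 and 0 for the difference. With a filter of 5 FPKM none was lower in either genotype comparison (0). With the main transcript only, 0 were higher in the p53+/+ response and 0 lower between treated genotypes. Among the 20 genes within their own bounds, the counts were 0 and 1, 1 lower, 7 higher, 3 higher, and 1 and 0. There the log2 ratio of sums was 1.42 untreated and 1.74 treated for H1. It was -1.40, -0.84 and 1.79 for H4 (p53+/+ response, p53-/- response, treated) and 0.11 untreated for chromosome 11. These sums hold only 3, 2 and 1 genes, and the H1 sum leaves out H1f0 and H1f10, which make up most of the full H1 sum. At a call of 1.5-fold the counts were 5 and 5, 12 lower, 44 and 2, 24 and 3, and 25 and 2, with 1339 of 13014 genes higher untreated. With aligned bases in place of FPKM, 1 was lower in the p53+/+ response and 0 in the difference. Among the 27 genes with at least 50% of 50-base stretches unique, the counts were 0 and 1, 2 lower, 11 and 0, 7 and 0, and 2 higher. With copies at shared loci summed, 0 were higher in the p53+/+ response and 0 lower in either genotype comparison. The p53+/+ median of 0.12 became -0.01 among genes within their bounds and -0.02 among the mostly unique ones, so its sign depends on which genes are kept, while the untreated genotype median ranged from 0.60 (pseudocount 5) to 1.25 (pseudocount 0.1) on the 57 genes. Low FPKM and shared sequence limit the precision of single genes.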
